A study of Arabidopsis thaliana with 16 samples.

Results

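DFR (AT5G42800), CHIL (AT5G05270) and UF3GT (AT5G54060) are genes of flavonoid synthesis, chosen by locus and described here across 5 populations of Arabidopsis root cells under iron deficiency. Each is measured by 1 probe set (249215_at for DFR, 250794_at for CHIL and 248185_at for UF3GT), so the genes account for 3 of the 22746 probe sets on the array that are not controls. All 3 lie on chromosome 5, and no other gene of the RefSeq table (assembly TAIR10.1) overlaps any of them.

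Flavonoids are phenolic compounds built when chalcone synthase joins a phenylpropanoid unit to malonyl units and chalcone isomerase closes the ring. CHIL is a relative of chalcone isomerase that lacks its catalytic activity and helps chalcone synthase form the right product, so it stands at the entry of the pathway. DFR, dihydroflavonol reductase, takes dihydroflavonols out of the flavonol branch towards anthocyanins and the tannins of the seed coat, and UF3GT, also called UGT79B1, adds a sugar to anthocyanins late in that branch. In roots, flavonols are the flavonoids best known, and they act on auxin transport.

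Every plant was of the Columbia ecotype and carried a reporter of green fluorescent protein (GFP). Seedlings grew for 6 days on standard medium and then stood for 24 h on medium without iron that held 0.3 mM ferrozine, an iron chelator. Roots were turned into protoplasts, which are cells stripped of their walls, and the GFP-positive ones were sorted. The populations were epidermis with lateral root cap (reporter WER::GFP, n = 4 arrays), columella root cap (PET111, n = 3), cortex (CORTEX, n = 3), endodermis with quiescent center (SCR::GFP, n = 3) and stele (WOL::GFP, n = 3). The first, the second and the fourth are called epidermis, columella and endodermis below. Each reporter decides which cells a population holds, and digestion and sorting were common to all. No array of roots with iron was analysed here, so every value is a level under iron deficiency and not a response to it. Fewer cells of a type and less RNA per cell cannot be told apart in such arrays.

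Values are MAS5 signals, a linear brightness per probe set scaled alike in all 16 arrays (trimmed means of 250.02 to 250.03). Differences are taken between means of log2(signal + 10.21), which makes folds of dim genes smaller than the ratios of their signals. Mean signals printed beside them are means of the linear values. A log2 difference can therefore be larger than the ratio of these means, or go in the other direction. The p-values are limma's, adjusted by Benjamini and Hochberg over 16221 probe sets at a threshold of 0.05. Arrays of 1 population correlated at 0.894 to 0.981 and arrays of different populations at 0.639 to 0.878. Epidermis replicate 4 stood apart: it correlated with the other epidermis arrays at 0.894 to 0.938 and with the cortex arrays at 0.839 to 0.868, where the other 3 epidermis arrays correlated with cortex at 0.727 to 0.791. The summed signal of 3 cortex markers was 2601.2 to 4536.7 in cortex, against at most 399.6 in any other population, although the marker AT1G62500 was dim there (12.9 ± 15.4, SD, n = 3). The endodermis marker AT1G61590 was highest in endodermis and the root cap marker AT1G65570 in columella, while 4 epidermis markers summed to 926.4 to 1857.8 in epidermis and 361.6 to 1571.9 in cortex. The stele marker LHW was as high in endodermis (392.9 to 563.8) as in stele (509.4 to 535.1), so LHW did not separate them.

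The 3 genes did not share a pattern. UF3GT was high in epidermis and dim elsewhere, CHIL had its highest signals in cortex and its lowest in epidermis and columella, and DFR was dim in all populations with its highest mean in endodermis. All 3 passed the moderated F test of limma across populations (adjusted p = 1.1e-06 for UF3GT, 1.3e-05 for CHIL and 0.020 for DFR), as did 82.2% of all probe sets tested, so passing this test does not set them apart. DFR did not pass it after quantile normalization (adjusted p = 0.081) or without endodermis replicate 1 (0.066). All 3 passed the filter on low signals, at least 3 arrays at or above 38.05, but not in the same way. CHIL was above that level in all 16 arrays. UF3GT was above it in 6 arrays, 4 of them epidermis. DFR was above it in 4 arrays, 3 of them endodermis. UF3GT and DFR were thus tested only because of the populations in which each is highest.

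**Figure D1:**
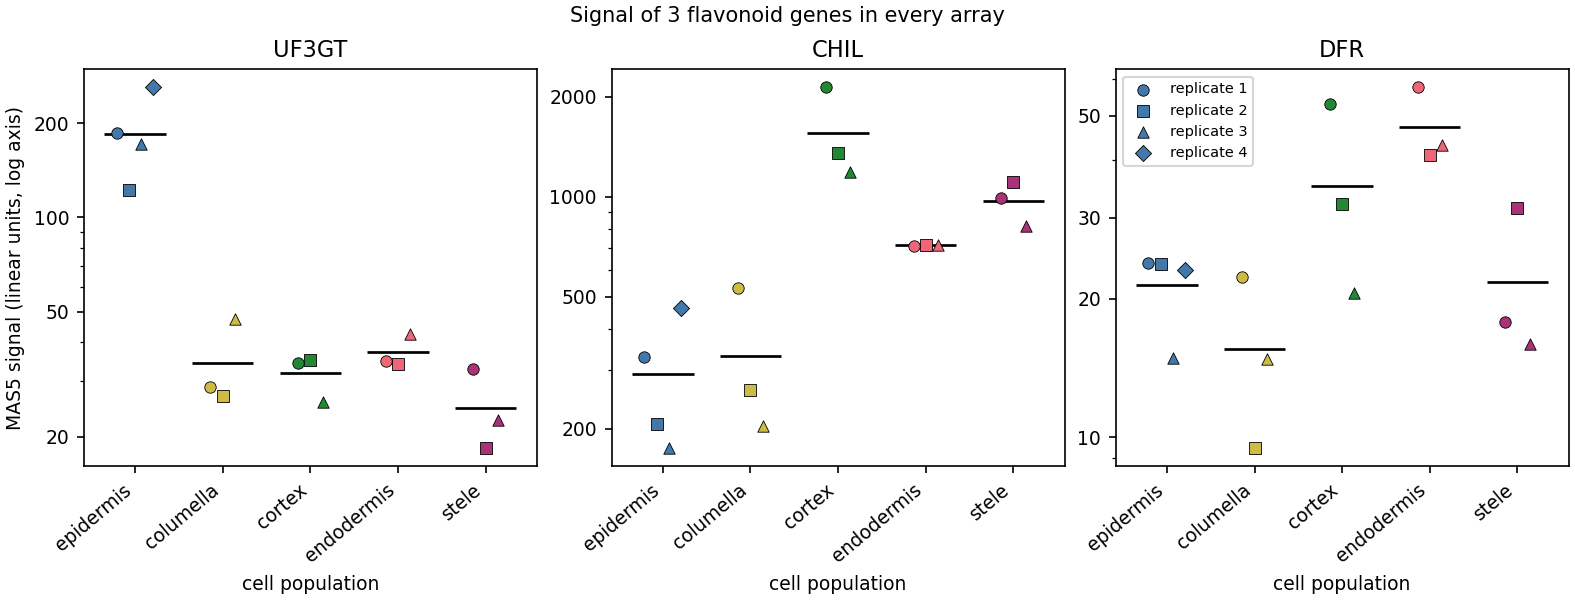
MAS5 signal (log axis) of UF3GT, CHIL and DFR in each of the 16 arrays by cell population, with marker shapes for replicates and a line at each population's mean. UF3GT lies at 122.6 or above in every epidermis array and at 47.4 or below elsewhere, CHIL at 1191 or above in cortex, and DFR at 57.6 or below in all arrays.

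CHIL, the helper of chalcone synthase at the entry of the pathway, was high in cortex, stele and endodermis and low in epidermis and columella. Its signal was 2139, 1354 and 1191 in the 3 cortex arrays, 994.3, 1108 and 817.0 in the stele arrays, and 711.4, 716.8 and 715.3 in the endodermis arrays. It was 328.8, 206.0, 174.8 and 462.5 in the epidermis arrays and 529.3, 261.9 and 203.6 in the columella arrays. Every array of cortex, stele and endodermis thus lay above every array of epidermis and columella. The share of all probe sets separated in this way was not counted. The endodermis arrays were nearly equal, while the highest of the columella arrays was 2.60 times the lowest and the highest of the epidermis arrays 2.65 times the lowest.

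Against the mean of the other 4 populations, CHIL was higher in cortex, at a mean signal of 1561 ± 506.8 (SD, n = 3) against 578.1. The difference between the means of log2 values in cortex and the others was 1.60 (SE 0.27, adjusted p = 0.00018). In cortex 18.6% of all probe sets were higher. Every cortex array lay above every other array, as it did for 6.21% of probe sets. CHIL was lower in epidermis (log2 difference -1.43, SE 0.25, adjusted p = 0.00013) and in columella (-1.24, SE 0.27, adjusted p = 0.0012), where 25.9% and 24.4% of probe sets were lower. In stele it was higher by 0.80 (SE 0.27, adjusted p = 0.038), where 15.9% were higher, but leaving out any of 8 of the 16 arrays ended this call. These were all 3 stele arrays, columella replicates 2 and 3, cortex replicates 2 and 3 and endodermis replicate 3, with adjusted p from 0.050 to 0.15. In endodermis the log2 difference was 0.26 with a 95% interval of -0.31 to 0.84 and did not pass (adjusted p = 0.46). By linear means the direction there was the other one, 714.5 against 789.8 for the mean of the others.

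**Figure D2:**
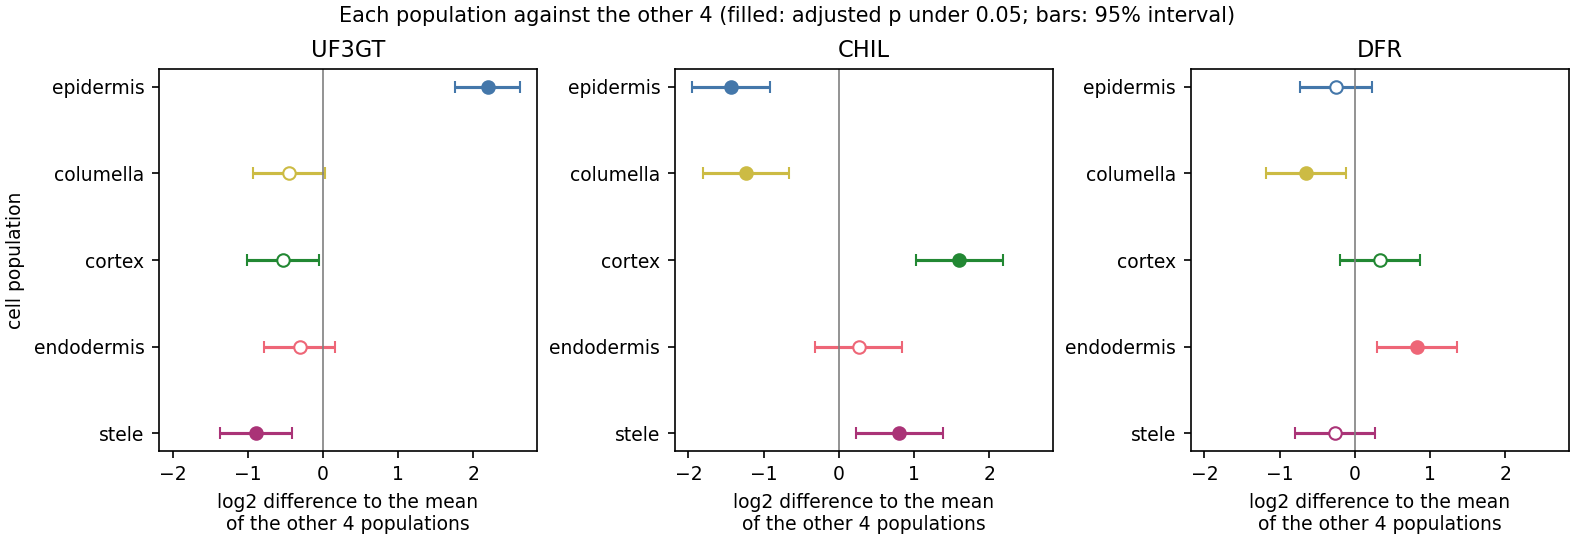
Log2 difference of each population to the mean of the other 4 for UF3GT, CHIL and DFR, with 95% intervals and filled points where the adjusted p is under 0.05. In epidermis UF3GT stands at 2.19 and CHIL at -1.43, and the DFR differences are all under 1 in size.

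In the order of its levels, CHIL ran from cortex through stele, endodermis and columella to epidermis, and 7 of the 10 pairs of populations passed. Cortex and stele did not pass (log2 difference 0.64, 95% interval -0.09 to 1.38, adjusted p = 0.17), although the lowest cortex array was above the highest stele array. Endodermis and stele did not pass either (-0.43, interval -1.16 to 0.31, adjusted p = 0.38). Columella was lower than endodermis, the next above it (-1.20, SE 0.35, adjusted p = 0.010), and this call was lost without columella replicate 3 (adjusted p = 0.064). Epidermis and columella differed by -0.16 (interval -0.84 to 0.53, adjusted p = 0.72). Cortex was higher than endodermis by 1.07 (SE 0.35, adjusted p = 0.020), but not past the threshold without cortex replicate 1 (adjusted p = 0.086) or after quantile normalization (0.92, adjusted p = 0.052). The difference between epidermis and cortex was the largest, at -2.43 (SE 0.33, adjusted p = 1.5e-05), in a pair where 47.8% of probe sets passed in either direction. In the other pairs of CHIL that passed, the share was 52.7% for epidermis and endodermis, 33.3% for epidermis and stele, 49.5% for columella and cortex, 44.2% for columella and endodermis, 43.1% for columella and stele and 44.3% for cortex and endodermis. In the pairs that did not pass it was 45.7% for epidermis and columella, 33.8% for cortex and stele and 30.0% for endodermis and stele.

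Epidermis replicate 4, the array that stood nearest to cortex, had the highest CHIL signal of its population, and its summed cortex markers were 164.5, against 59.8 to 104.4 in the other 3 epidermis arrays. That array also had lower summed epidermis markers (926.4, against 1308.1 to 1857.8 in the other 3) and 25S rRNA control (1087.5, against 5363.0 to 8289.1). Its log2 ratio of 3' to 5' signal was higher for GAPDH (2.294, against 1.153 to 1.595). For actin it was lower (4.374, against 4.884 to 5.279). What part these differences had in the CHIL signal was not tested. Without that array the epidermis difference of CHIL was -1.68 (adjusted p = 1.9e-05). The columella array with the highest CHIL signal, replicate 1, had summed cortex markers of 105.6, against 100.7 and 59.6 in the other columella arrays.

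DFR, which commits dihydroflavonols to anthocyanins, was dim in every population. Its signal was 57.6, 41.0 and 43.2 in endodermis, 53.0, 32.1 and 20.5 in cortex, and 17.8, 31.5 and 15.9 in stele. It was 24.0, 23.8, 14.8 and 23.1 in epidermis and 22.3, 9.47 and 14.8 in columella. The endodermis arrays lay above all arrays of stele, epidermis and columella, while cortex replicate 1 reached into the range of endodermis. How many probe sets were separated in this way was not counted. Within its array DFR ranked between the 18.3rd and the 44.6th percentile of probe sets, and no detection calls were used here, so in which arrays it was above background was not tested.

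DFR was higher in endodermis than the mean of the other 4 populations, at 47.3 ± 9.04 (SD, n = 3) against 23.5. The log2 difference was 0.82 (SE 0.25, adjusted p = 0.014) in endodermis, where 23.2% of all probe sets were higher. DFR passed the filter only with the endodermis arrays, so its calls as higher there are a description. It was lower in columella by the same test (-0.65, SE 0.25, adjusted p = 0.044), where 24.4% were lower. That mean includes endodermis, through which DFR was tested, and columella did not pass against any population other than endodermis. The differences in epidermis (-0.25, 95% interval -0.73 to 0.23), cortex (0.34, interval -0.20 to 0.87) and stele (-0.26, interval -0.79 to 0.27) did not pass, with adjusted p of 0.36, 0.29 and 0.49. Of 10 pairs 3 passed: epidermis against endodermis (-0.86, SE 0.30, adjusted p = 0.023), columella against endodermis (-1.18, SE 0.32, adjusted p = 0.0066) and endodermis against stele (0.87, SE 0.32, adjusted p = 0.0499). The first call was lost after quantile normalization and without epidermis replicate 3 or endodermis replicate 1. The last was lost after quantile normalization (0.51, adjusted p = 0.22), without a pseudocount (adjusted p = 0.083), without the filter (0.058) and without any single array other than columella replicate 2, cortex replicate 1 or 3 or stele replicate 2. Columella against cortex just missed the threshold (-0.79, adjusted p = 0.051). That pair passed after quantile normalization (adjusted p = 0.031), without a trend in eBayes (0.030) and without columella replicate 1 (0.037), cortex replicate 3 (0.023) or stele replicate 2 (0.049). Of all probe sets, 52.7% passed between epidermis and endodermis, 44.2% between columella and endodermis and 30.0% between endodermis and stele, in either direction. In the pairs that did not pass for DFR the share was 33.3% to 49.5%. No 2 neighbours in the order endodermis, cortex, stele, epidermis and columella differed past the threshold (adjusted p = 0.34, 0.27, 0.99 and 0.41).

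The endodermis call of DFR was lost after quantile normalization (log2 difference 0.38, adjusted p = 0.22) and without endodermis replicate 1 (0.70, adjusted p = 0.079). The low end of the endodermis arrays was raised as a whole: their lower quartile of signal was 22.3 to 23.2, against 11.1 to 18.8 in all other arrays. Their log2 ratio of 3' to 5' signal, a control of RNA quality, was 2.88 to 3.84 for GAPDH, against 1.15 to 2.75 in all other arrays. For actin it was 4.52 to 5.75, within the 4.17 to 5.83 of the others. The part of these differences in the DFR call was not tested. Ranked within its own array, DFR stood at the 43.8th, 35.6th and 36.4th percentile in endodermis, against the 44.6th, 39.2nd and 34.8th in cortex and the 29.5th to 36.7th in epidermis. By rank, the endodermis arrays therefore overlapped with those of cortex, epidermis and stele, and lay above those of columella alone. The columella call of DFR was lost with arrays weighted by their quality (-0.47, adjusted p = 0.11), without the filter (adjusted p = 0.056) and in 9 of the 16 fits that left out 1 array, which were those without epidermis replicates 1, 2 or 4, columella replicates 2 or 3, cortex replicates 1 or 2, endodermis replicate 1 or stele replicate 2 (adjusted p from 0.051 to 0.22).

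**Figure D3:**
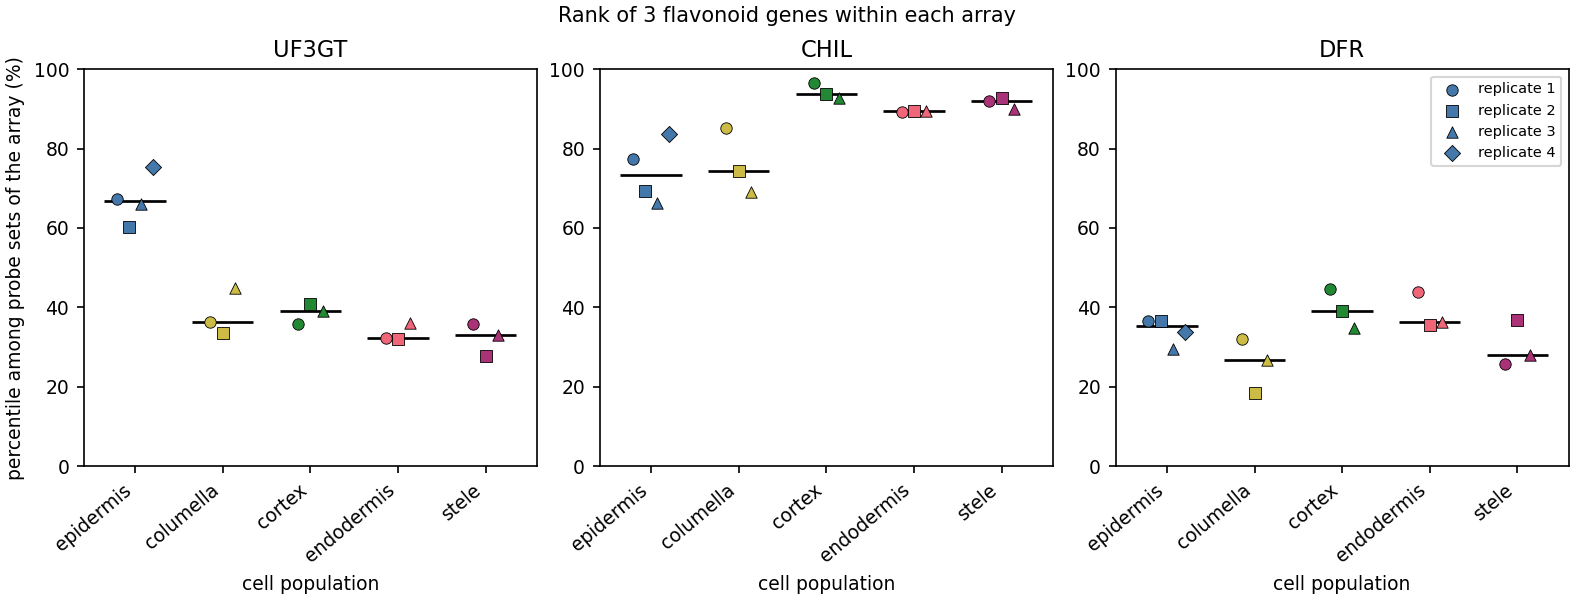
Percentile of UF3GT, CHIL and DFR among the probe sets of each array (0 to 100%), by cell population, with a line at each population's median. The endodermis arrays of DFR (35.6 to 43.8) overlap with those of cortex, epidermis and stele, while the epidermis arrays of UF3GT (60.4 to 75.3) stay above all others.

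UF3GT, the late glycosyltransferase of anthocyanins, was high in epidermis with lateral root cap. Its signal was 185.3, 122.6, 171.7 and 260.0 in the 4 epidermis arrays. The columella arrays had 28.8, 26.9 and 47.4, the cortex arrays 34.4, 35.2 and 25.7, the endodermis arrays 34.9, 34.2 and 42.6, and the stele arrays 32.8, 18.4 and 22.6. Even the lowest epidermis array was far above the highest of the other 12 arrays, columella replicate 3. In percentiles of the array the gap was between 60.4 in epidermis and 44.9 in columella.

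In epidermis the mean signal of UF3GT was 184.9 ± 56.8 (SD, n = 4), against 32.0 for the mean of the other 4 populations. The log2 difference was 2.19 (SE 0.20, adjusted p = 1.6e-07) in epidermis, where 25.9% of all probe sets were higher and 2.68% had every epidermis array above every other array. UF3GT passed the filter only with the epidermis arrays, so its calls as higher there are a description. Epidermis differed from each of the other populations, by 2.00 from endodermis (SE 0.27, adjusted p = 8.7e-06), 2.11 from columella, 2.18 from cortex and 2.46 from stele, and these were the 4 pairs of 10 that passed. Of all probe sets, 52.7%, 45.7%, 47.8% and 33.3% passed in these pairs, in the same order and in either direction. In the pairs without epidermis the share was 30.0% to 49.5%. Among the other populations no neighbours in the order of mean signal, endodermis, columella, cortex and stele, differed past the threshold (adjusted p = 0.78, 0.87 and 0.47). That order was not kept by rank within the arrays. The median percentile of UF3GT was 32.22 in endodermis, 32.92 in stele, 36.25 in columella and 39.05 in cortex. The interval for columella minus cortex, a difference of 0.07, ran from -0.54 to 0.67. The epidermis difference passed in every alternative run, with values of 1.64 to 2.53, and was 2.02 without epidermis replicate 4 (adjusted p = 6.3e-07).

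UF3GT was lower in stele than the mean of the other 4 populations, at 24.6 ± 7.42 (SD, n = 3) against 72.1 (log2 difference -0.89, SE 0.23, adjusted p = 0.0070), where 11.2% of probe sets were lower. That mean includes epidermis, and stele did not pass against any population other than epidermis. The call was lost without stele replicate 2 (-0.76, adjusted p = 0.056). The differences of cortex (-0.53, adjusted p = 0.061), columella (-0.45, adjusted p = 0.11) and endodermis (-0.31, adjusted p = 0.28) did not pass. That of cortex passed without epidermis replicate 2 (-0.58, adjusted p = 0.038) and that of endodermis after quantile normalization (-0.73, adjusted p = 0.016).

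The epidermis population also holds the lateral root cap. AT1G65570, the 1 of 6 root cap markers with a probe set here, had signals of 1802, 817.0, 1691 and 3737 in epidermis replicates 1 to 4. The 4 arrays stood in the same order by AT1G65570 and by UF3GT. In columella, the other root cap population, AT1G65570 was 6916 to 7878 while UF3GT was 26.9 to 47.4. The part of lateral root cap cells in the UF3GT signal of the epidermis arrays was not tested.

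Between the genes, log2 values over the 16 arrays correlated at -0.59 for UF3GT and CHIL, at -0.15 for UF3GT and DFR and at 0.57 for CHIL and DFR. Over the 5 population means the values were -0.65, -0.16 and 0.56. These values describe arrays that fall into 5 groups and share a scaling, and carry no test. Within populations CHIL varied the most of the 3, with a residual SD of 0.49 on the log2 scale, larger than in 72.9% of probe sets tested. The residual SD was 0.34 for DFR and 0.31 for UF3GT, where the median probe set had 0.37.

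Among 1230 other probe sets with 1 gene and a symbol, those most like UF3GT over the 16 arrays were ALDH3F1 (AT4G36250), an aldehyde dehydrogenase gene (Pearson r = 0.91), scpl18 (AT1G33540), a serine carboxypeptidase-like gene (r = 0.88), and GH9C3 (AT4G11050), an endoglucanase gene (r = 0.87). All 3 had their highest mean in epidermis, at 323.0 ± 80.5, 134.2 ± 32.5 and 326.6 ± 135.0 (SD, n = 4), and at most 56.9 in any other population. Those most like CHIL were TBL28 (AT2G40150, r = 0.94), which belongs to a family that acetylates wall polysaccharides, PGRL1B (AT4G11960, r = 0.94), which acts in cyclic electron flow of photosynthesis, and HYH (AT3G17609, r = 0.94), a bZIP transcription factor related to the light regulator HY5. Those most like DFR were the plastid genes psbB (r = 0.84) and psbD (r = 0.84) of photosystem II and CSA1 (AT5G17880, r = 0.84), an immune receptor gene. All 3 were highest in endodermis, with CSA1 at 163.3 ± 16.1 (SD, n = 3), against 54.2 ± 18.7 in cortex (SD, n = 3). These genes were chosen by likeness to UF3GT, CHIL or DFR, so where they are highest is no separate result.

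Of 64 other listed genes of phenylpropanoid entry, flavonoid synthesis, decoration, transport and regulation, 10 had a probe set that the array annotation assigns to them, and 6 passed the filter. The genes of chalcone synthase, chalcone isomerase and flavonol synthase were not among the 10 and are not analysed here. UGT79B6, AT1G06000, AT1G23390 and AT4G14090 were found by locus, and the last 3 are given by it. The 4 that did not pass the filter were dim in all populations. They were BAN, anthocyanidin reductase of the tannin branch (mean signals of 2.15 to 13.9), AT4G14090 of the decoration list (2.20 to 15.1), AT5MAT, an anthocyanin malonyltransferase (5.66 to 18.6), and UGT78D3, a flavonol arabinosyltransferase (3.47 to 13.1). UGT79B6, a relative of UF3GT listed apart from these, was dimmer still, at 1.32 to 5.38. BAN and AT5MAT act on products of the DFR branch.

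Against the mean of the other 4 populations, 4 of the 6 tested genes were higher in cortex and 0 were lower, while 4 were lower and 0 higher in columella. The 6 are 3 decoration genes and 3 regulators. A regulator can raise or lower synthesis, so these counts do not measure synthesis. In cortex 18.6% and in columella 22.8% of all probe sets were higher, and 28.2% and 24.4% were lower. The median log2 difference of the 6 was 0.91 in cortex and -0.76 in columella, beside -0.17 and -0.03 for all probe sets tested. In epidermis 2 were higher and 3 lower, where 25.9% of all probe sets were higher and 25.9% lower (median -0.65, against 0.03 for all). The 2 higher ones, UGT78D1 and TRY, passed the filter through the epidermis arrays, so their count there is a description. TRY is also 1 of the 4 lower in columella, against a mean that includes epidermis, so its part in that count is a description too. In endodermis 2 were higher and 0 lower, beside 23.2% and 19.9% of all (median -0.10, against 0.05). In stele 1 was higher and 0 lower, beside 15.9% and 11.2% of all (median -0.02, against 0.05). The columella count rests on columella replicate 3: without that array 0 of the 6 passed there. The epidermis count was 3 without epidermis replicate 3, the endodermis count 1 without endodermis replicate 3, and the stele count 0 without any of the stele arrays. The cortex count was 3 to 4 in the fits that left out 1 array.

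**Figure D4:**
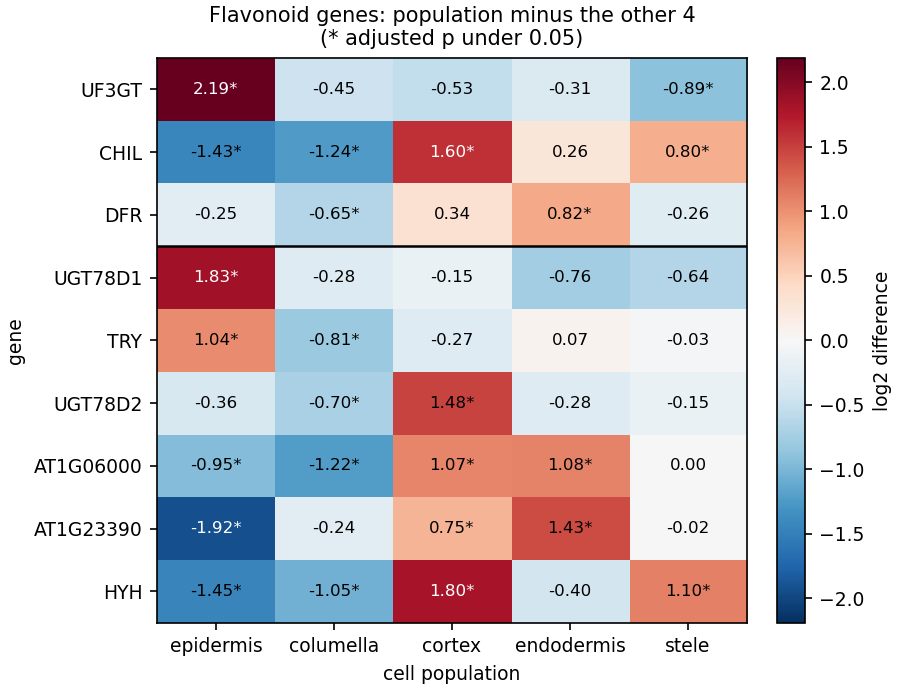
Log2 difference of each population (columns) to the mean of the other 4 for the 3 genes (above the line) and the 6 other listed flavonoid genes that could be tested (below it), with an asterisk where the adjusted p is under 0.05. CHIL, UGT78D2, AT1G06000, AT1G23390 and HYH are higher in cortex, and UF3GT, UGT78D1 and TRY in epidermis.

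The decoration genes differed in where they were highest. UGT78D1, which adds rhamnose to flavonols, had 103.3, 76.4, 50.2 and 14.3 in the epidermis arrays and at most 23.4 in any other array. It was higher in epidermis by 1.83 on the log2 scale (SE 0.35, adjusted p = 0.00039), a value that was 3.05 without a pseudocount and 1.02 with a larger one, and epidermis replicate 4 lay within the range of the other populations. It passed the filter through epidermis replicates 1 to 3 alone. UGT78D2, which adds glucose to flavonols and anthocyanidins, was higher in cortex, at 1106 ± 450.8 (SD, n = 3) against 375.9 for the mean of the others (1.48, SE 0.21, adjusted p = 3.6e-05). Its 3 cortex signals were 1611, 959.3 and 746.2, and its highest signal elsewhere was 546.2 in stele.

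AT1G06000, of the decoration list, was high in cortex (3064 ± 699.6, SD, n = 3) and endodermis (3062 ± 579.0, SD, n = 3). In both it was above the mean of the others, by 1.07 and 1.08 (adjusted p = 0.011 in each). It was lower in columella (-1.22, adjusted p = 0.0044) and epidermis (-0.95, adjusted p = 0.011). Each of these 4 calls was lost without 1 array: cortex replicate 1 (adjusted p = 0.063), endodermis replicate 3 (0.075), columella replicate 3 (0.088) and epidermis replicate 3 (0.052). UGT78D2 likewise was lower in columella (-0.70, adjusted p = 0.012) except without columella replicate 3 (adjusted p = 0.098).

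Of the regulators, HYH was 300.0, 182.7 and 194.6 in cortex and 163.8, 144.5 and 132.5 in stele. It was 47.6, 31.8 and 33.6 in columella, 39.7, 78.8 and 60.3 in endodermis, and 33.1, 15.4, 10.7 and 79.9 in epidermis. It was higher in cortex (1.80, SE 0.32, adjusted p = 0.00026) and lower in epidermis (-1.45, SE 0.29, adjusted p = 0.00053), the populations in which CHIL was highest and lowest. In stele it was higher by 1.10 (adjusted p = 0.017), and in columella it was lower (-1.05, adjusted p = 0.012). The stele call was lost without any single stele array (adjusted p from 0.050 to 0.075) and the columella call without columella replicate 2 or 3 (0.062 and 0.058). Like CHIL, HYH had its highest epidermis signal in replicate 4.

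AT1G23390, of the list of regulators, had its highest mean in endodermis, with signals of 773.5, 906.6 and 518.4. It was 104.7, 54.5, 79.3 and 232.6 in the epidermis arrays, the highest again in replicate 4. It was higher in endodermis (1.43, SE 0.29, adjusted p = 0.00087) and lower in epidermis (-1.92, SE 0.26, adjusted p = 1.3e-05). In cortex it was higher by 0.75 (adjusted p = 0.046), a call lost without any single one of 10 arrays (epidermis, columella and endodermis replicates 1 and 3, cortex and stele replicates 2 and 3). The call was also lost without a pseudocount (adjusted p = 0.055), without the filter (0.059) and without a trend (0.054). TRY (AT5G53200), an inhibitor of the MYB and bHLH complexes of hair patterning and anthocyanin control, was higher in epidermis, with signals of 35.2 to 91.3 in its arrays, against a mean of 24.7 over the others (1.04, SE 0.29, adjusted p = 0.0066). It reached the filter in 3 epidermis arrays and 2 others, endodermis replicate 3 and stele replicate 2, and so was tested through the population in which it is highest. Taken singly, epidermis did not pass against endodermis (adjusted p = 0.10) or stele (0.099). TRY also stands in the list of epidermis markers. TRY was lower in columella (-0.81, adjusted p = 0.047), a call kept without epidermis replicate 4, columella replicate 2, cortex replicate 3, endodermis replicate 2 or stele replicate 3 and lost without any other single array. It was also lost after quantile normalization (adjusted p = 0.060), with the larger pseudocount (0.056) and without the filter (0.063).

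**Figure D5:**
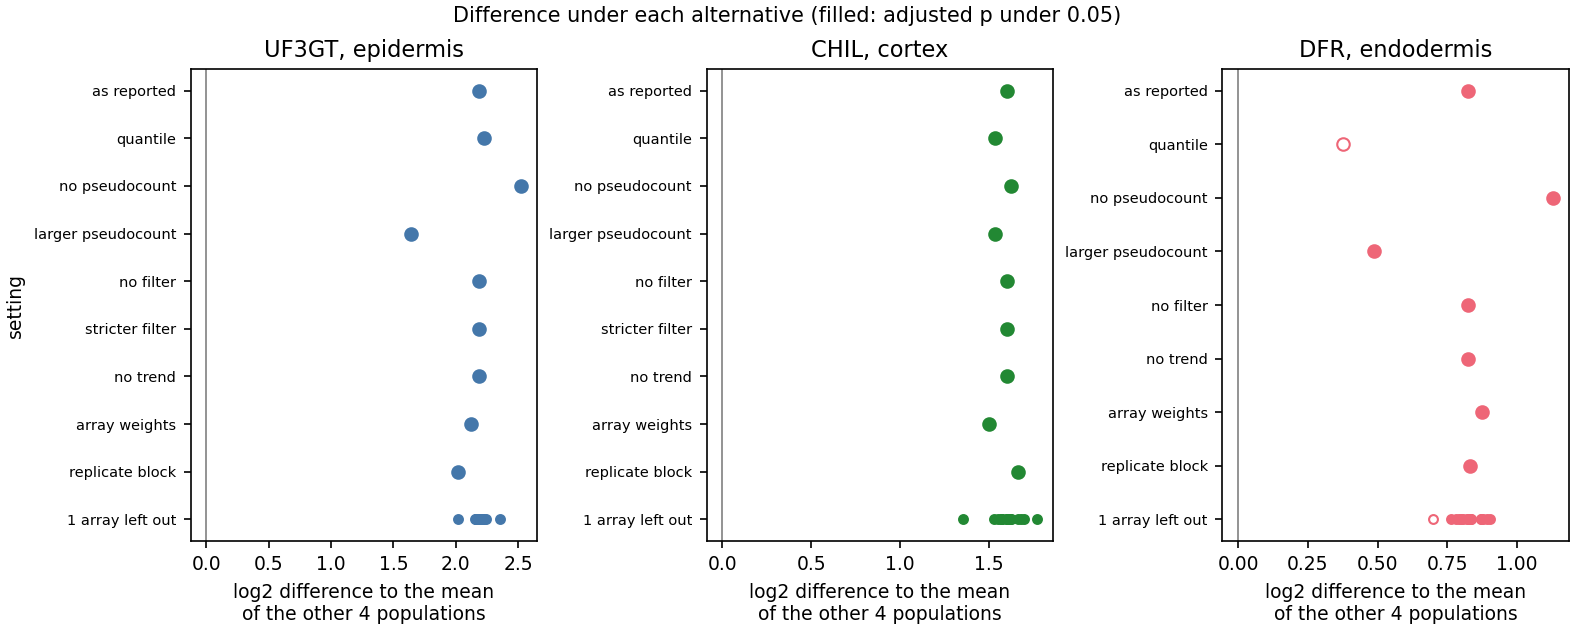
Log2 difference of UF3GT in epidermis, CHIL in cortex and DFR in endodermis to the mean of the other 4 populations under each alternative setting, with small points for fits without 1 array and filled points where the adjusted p is under 0.05. UF3GT and CHIL pass in every setting drawn, while DFR does not pass after quantile normalization (0.38) or without endodermis replicate 1 (0.70), and has no value under the stricter filter.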

How the data were processed

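RNA of sorted root cells was measured on 16 Affymetrix arrays. The deposited tables hold intensity, the linear signal of MAS5 per the submitters' processing notes, scaled per array by the authors as the equal trimmed means show. The version of MAS5 and detection calls are not given in the sources used here. No 2 columns were identical (0 of 120 pairs). Whether replicates were separate cultures is not stated, so the spread behind each p-value may be technical.

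The pseudocount was the 20th percentile of 22746 probe sets (64 controls left out) and the filter the 40th percentile. Using limma 3.58.1 (R 4.3.3), 1 mean per population was estimated over the 16 arrays (eBayes with an intensity trend, 2-sided tests), with Benjamini-Hochberg adjustment over 16221 probe sets. The code was tested on simulated data. Figures used Python 3.11.15 and matplotlib 3.10.9. Genes were matched by the array annotation (13513 probe sets with 1 gene, 503 with several, 8730 with none) and RefSeq gene IDs.

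Named genes are the 3 genes, the listed genes that have a probe set, and for each gene the 3 most correlated probe sets with a symbol. The genes and lists were chosen with earlier results of these data known. Alternatives changed the normalization (quantile), the pseudocount, the filter, the trend, weights per array and a replicate block, and left out each array in turn. The number of arrays limits the precision. Gene and promoter sequences were not used here.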

Additional observations from a re-analysis of the deposited data

Results flagged for a closer look

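The lowest of the 4 epidermis arrays for DFR, replicate 3 at 14.8, lay apart from the other 3, which were 24.0, 23.8 and 23.1. The gap was 0.901 of the population's range, above the critical value of Dixon's test for 4 values. The highest epidermis array for AT4G14090, a listed gene of flavonoid decoration, was replicate 4 at 14.8. The others were 0.952, 3.30 and 2.00, and the gap was 0.83 of the range, just above the same critical value, but all 4 signals were dim and the gene was not tested. Both ends of the epidermis group were looked at for the 3 genes, the 10 other listed genes with a probe set and UGT79B6. Chance alone marks about 1 in 20 such groups.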

How the results depend on the processing

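Of 1327 values recomputed under alternatives, 1243 kept their direction and side of the threshold. The UF3GT call in epidermis and the CHIL calls in cortex, epidermis and columella were kept in all alternatives run. DFR was not tested with the filter at the 60th percentile, since too few arrays reached it. Dim signals limit DFR, UGT78D1 and the low populations of UF3GT, for which no detection calls were used here.

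Quantile normalization gave UF3GT in endodermis -0.73 (log2, now past the threshold), DFR in endodermis 0.38 and an adjusted p of 0.081 for the F test of DFR (both lost), and turned the direction of DFR in epidermis (0.026). With array weights, UF3GT passed in columella (-0.50) and cortex (-0.55), and DFR in columella did not (-0.47). UF3GT in cortex also passed with the larger pseudocount (-0.41) and without a trend (-0.53). DFR in columella did not pass without a filter, at the same difference as with it (-0.65). With the stricter filter 3 listed genes were called in epidermis, against 5. UGT78D1 and TRY, with highest signals of 103.3 and 91.3, were not tested there, as that filter lay at 118.4. Pairs that had not passed turned direction as follows. Quantile normalization gave UF3GT -0.014 for columella minus cortex, 0.30 for columella minus endodermis and 0.32 for cortex minus endodermis, and DFR 0.061 for cortex minus endodermis. For DFR, epidermis minus stele was -0.0012 with the larger pseudocount and -0.022 with the replicate block. The block gives epidermis replicate 4 a term of its own, and without that array the value was also -0.022. For the other changes the cause was not tested.

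Leaving out 1 array gave UF3GT -0.60 to -0.43 in cortex and -1.05 to -0.76 in stele, CHIL 0.70 to 0.92 in stele, and DFR -0.83 to -0.47 in columella and 0.70 to 0.90 in endodermis. The adjusted p of the F test of DFR ran from 0.011 to 0.066, the highest without endodermis replicate 1, and its pairs that passed from 1 to 4. Listed genes called ran from 3 to 5 in epidermis, 0 to 4 in columella, 3 to 4 in cortex, 1 to 3 in endodermis and 0 to 1 in stele. Pairs that had not passed ran from -0.13 to 0.18 (UF3GT, columella minus cortex), -0.31 to 0.0055 (UF3GT, columella minus endodermis), -0.44 to 0.23 (CHIL, epidermis minus columella) and -0.12 to 0.21 (DFR, epidermis minus stele).

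Residuals of arrays with the same replicate number correlated at -0.265 to 0.237 (median 0.004), and of arrays with different numbers at -0.246 to 0.358, so the numbers were not taken as pairs. With the replicate block, 4 pairs passed for UF3GT, 8 for CHIL and 4 for DFR, against 4, 7 and 3 without it. The pairs added were cortex minus stele for CHIL (0.64, adjusted p = 0.049) and columella minus cortex for DFR (-0.79, adjusted p = 0.049).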
